A study of Mus musculus with 4 samples.

Results

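Weak Foxa2 sites with neither partner are the 14843 sites of the Foxa2 list that were chosen by a deposited score below 75, a width above 60 bp and the lack of any overlap, by 1 bp or more, with an Insm1 or a Neurod1 site. They make up 52.3% of the 28379 Foxa2 sites and 87.4% of the 16974 Foxa2 sites with neither partner. The lists of the 3 factors hold 60439 sites together. The cells were a beta cell line from islets of RIP1-Tag2 transgenic mice 6 weeks old, on a mixed C57BL/6, 129/ola and CBA/J background, taken at passages 10 to 15 and kept in 25 mmol/l glucose. RIP1-Tag2 mice carry a viral oncogene behind an insulin promoter, so the line models transformed beta cells. Chromatin was precipitated with antibodies to Insm1, Neurod1 or Foxa2, or with IgG as the control, in otherwise untreated cells. There is 1 sample per antibody and 1 site list per factor, and the IgG control enters no comparison here. No spread between replicates can be had. All intervals are 95% intervals, by Wilson's method for shares and Newcombe's for differences of shares, and cover counting error within 1 list. Read depth is unknown for every site.

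Foxa2 is a forkhead factor that can engage DNA wrapped in nucleosomes, and it acts in the endoderm from which liver, gut and pancreas form. In the pancreas it takes part in beta cell development and in the expression of genes for glucose sensing and insulin secretion. Insm1, a zinc finger protein, and Neurod1, a basic helix-loop-helix protein that binds E-boxes, are expressed in endocrine cells. ChIP-seq reads pile up where a factor, or something bound to it, was crosslinked to DNA, and a peak caller turns the piles into sites. Weak or rare binding and background cannot be told apart from the score of a site alone. Because the lists hold no expression values, the labelled cell type could not be checked against marker genes. No sequence is printed, since no genome of the files' build, mm9, was used here.

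The score, the width and the absence of a partner define these sites and are given only as a description. Scores ran from 19, the lowest of the Foxa2 list, to 74, with quartiles of 25, 32 and 44, compared with a median of 42 over all Foxa2 sites. The weak sites thus fill the lower part of the score range, and most lie far from the limit. The next step of the score lay on both sides of the limit in similar numbers, with 74 sites at a score of 74 and 59 Foxa2 sites with neither partner at 75. In all, 1962 Foxa2 sites with neither partner scored 75 or more, of which 1918 were wider than 60 bp. Another 169 sites below 75 with neither partner were 60 bp wide or less and were left out by the width limit.

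**Figure D1:**
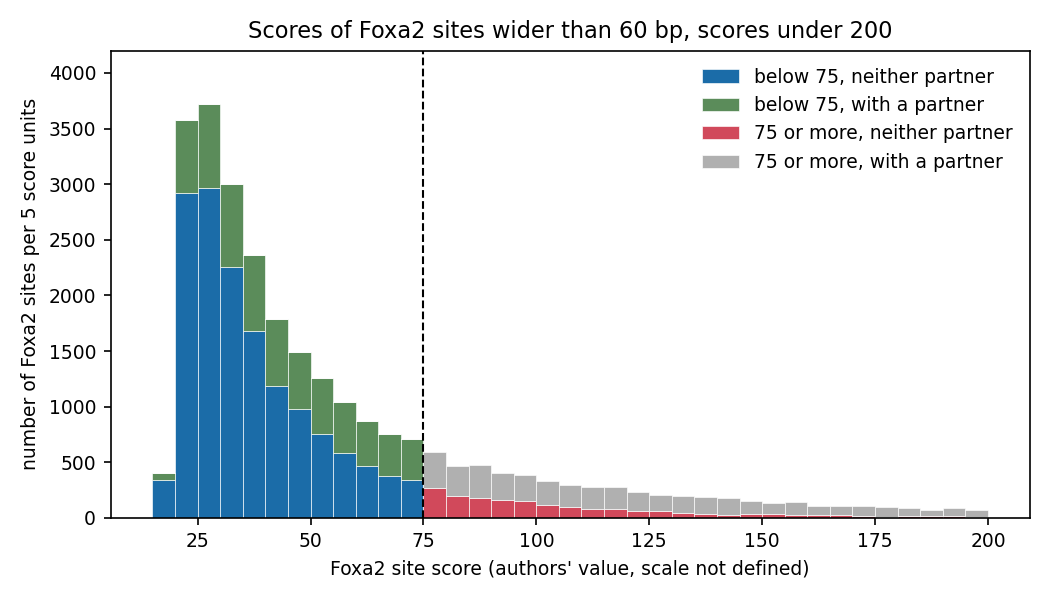
Number of Foxa2 sites wider than 60 bp per 5 score units (y axis) against the deposited Foxa2 score (x axis, scores under 200), stacked by score class and by overlap with an Insm1 or Neurod1 site. The dashed line is the score limit of 75; the weak sites with neither partner are the blue part and fall from a peak between 20 and 30 to the limit.

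Being without a partner was most frequent at the lowest scores. Among Foxa2 sites wider than 60 bp, 80.6% (79.7 to 81.5%) of those scoring 20 to 29 had neither partner. The share was 73.3% (72.1 to 74.5%) for scores of 30 to 39, 66.0% (64.4 to 67.6%) for 40 to 49, 58.6% (56.5 to 60.6%) for 50 to 59 and 52.1% (49.6 to 54.5%) for 60 to 69. It was 47.6% (43.9 to 51.3%) just inside the limit, at 70 to 74, and 46.0% (42.0 to 49.97%) just outside it, at 75 to 79. Both the score and the overlap are part of the rule, and nothing is read from this slope. Over all scores below 75, 70.8% of the 20964 sites wider than 60 bp had neither partner, and the other 6121 had Insm1 (4973), Neurod1 (4054) or both (2906).

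The strongest of the weak sites show how differently such sites are placed. Of the 5 named by a score of 74 and the largest width, the first lay on chromosome 14 at 94000731 to 94001103, a 372 bp site 1282 bp from another Foxa2 site and 192301 bp from the nearest Insm1 site. The second, on chromosome 8 at 3138234 to 3138559, had no other Foxa2 site within 77574 bp and its nearest Neurod1 site at 82639 bp. The third, on chromosome 15 at 32565480 to 32565801, had a Foxa2 site at 1652 bp and a Neurod1 site at 4943 bp. The fourth was close to a partner without touching it. It lay on chromosome 10 at 19711037 to 19711355, with a Neurod1 summit 533 bp away and the nearest Insm1 summit at 15572 bp. The fifth, on chromosome 6 at 6792231 to 6792548, stood alone, with 81912 bp to the next Foxa2 site and 113566 bp to the next Insm1 site. Just outside the limit, the widest site with a score of 75 lay on chromosome 13 at 42873042 to 42873590, with 44967 bp to Insm1 and 19814 bp to another Foxa2 site. On chromosome 18, a site of 392 bp at 69595108 to 69595500 came next, with 34273 bp to Insm1. The one after that, on chromosome 3 at 117576361 to 117576675, had its nearest Neurod1 site at 626768 bp.

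The weakest sites also varied in their distance to a partner. At the lowest score of 19, the widest was 472 bp wide and lay on chromosome 16 at 81493842 to 81494314, with more than a megabase (1221170 bp) to the nearest Insm1 site. The next on chromosome 13, at 81247611 to 81248066, had an Insm1 site at 51049 bp and a Foxa2 site at 50988 bp. On chromosome 4, a site at 8518300 to 8518753 had a Foxa2 neighbour at 13751 bp. On chromosome 18, a site at 83081821 to 83082257 had an Insm1 summit at 4921 bp and a Neurod1 summit at 9140 bp. The last of the 5, on chromosome 15 at 91292402 to 91292828, had both partners at 144762 bp. In these 5 sites, chosen by score and width, the nearest partner thus lay between 4921 and 1221170 bp away.

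Weak sites with neither partner less often had a partner site within 10 kb than the other Foxa2 sites they were compared with. The rule bars only overlap, and the distance to partner sites elsewhere was not used by it. It was taken from summit to summit, to the nearest partner site that does not overlap. The comparison classes, all wider than 60 bp, were the 1918 strong sites with neither partner (score 75 or more) and the 6121 weak sites with a partner. An Insm1 or Neurod1 site lay within 10 kb of 4334 weak sites with neither partner (29.2%, 28.5 to 29.9%), of 699 strong sites with neither partner (36.4%, 34.3 to 38.6%) and of 2069 weak sites with a partner (33.8%, 32.6 to 35.0%), counting for the last only partner sites beyond the overlapping one. Over all Foxa2 sites the share was 31.9%. The difference from the strong sites was -7.25 percentage points (-9.54 to -5.00, Fisher's exact test, two-sided, adjusted p = 4.7e-10), with the weak sites lower on 19 of 20 chromosomes. The difference from weak sites with a partner was -4.60 points (-6.00 to -3.22, Fisher's exact test, adjusted p = 3.9e-10), with the same direction on 20 of 20 chromosomes. The classes of weak sites are split by overlap with the same Insm1 and Neurod1 lists. The rule can therefore bear on this second difference, and nothing is read from it. The p-values were adjusted over a family of 12 comparisons, of which 11 passed a threshold of 0.05, and treat neighbouring sites as independent, which they may not be. The 11 include comparisons with weak sites with a partner, the X share among them, on which the rule can bear.

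The differences had the same direction for each partner, and those from weak sites with a partner carry the same limit. Insm1 was within 10 kb of 24.3% (23.6 to 25.0%) of weak sites with neither partner, compared with 30.1% of strong ones (difference -5.83 points, -8.03 to -3.70, Fisher's exact test, adjusted p = 8.9e-08) and 27.4% of weak sites with a partner (-3.14 points, -4.46 to -1.83, Fisher's exact test, adjusted p = 3.5e-06). Neurod1 was within 10 kb of 21.5% (20.9 to 22.2%), compared with 28.2% (-6.64 points, -8.79 to -4.56, Fisher's exact test, adjusted p = 4.7e-10) and 26.3% (-4.74 points, -6.03 to -3.46, Fisher's exact test, adjusted p = 2.5e-12). Where a partner lay within 10 kb, both were there more often than either alone. Over the whole lists, 55.0% of Insm1 sites overlapped a Neurod1 site and 65.7% of Neurod1 sites overlapped an Insm1 site. The joint presence is therefore not read as a trait of the weak sites. Of the weak sites, 2468 (16.6%) had Insm1 and Neurod1 within 10 kb, 1140 (7.68%) had Insm1 only and 726 (4.89%) had Neurod1 only, and 10509 (70.8%) had neither. The nearest partner was Insm1 for 8402 sites (56.6%) and Neurod1 for 6345 (42.7%), with 96 ties. The Insm1 list is the longer of the partner lists, with 17453 sites compared with 14607.

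The contrast with strong sites was already present within the first kilobase. Within 1 kb, 5.20% (4.86 to 5.57%) of the weak sites had a non-overlapping partner summit, compared with 14.5% (13.0 to 16.1%) of the strong sites, a difference of -9.29 points (-11.0 to -7.74, Fisher's exact test, adjusted p = 1.0e-43). The adjustment here was over the 10 distance comparisons at 1 kb. Of all 28379 Foxa2 sites, 1420 had such a summit within 1 kb (interval 4.76 to 5.26%), so the weak sites were not below the whole list. The whole list also holds the sites with a partner, at 2.71% (score below 75) and 3.56% (75 or more). The strong sites with neither partner were the class set apart, and the difference is read only as one between the classes with neither partner. Between 1 and 10 kb, a setting chosen after seeing the data, the shares were 25.6% and 27.2%, and the difference of -1.57 points (-3.73 to 0.50) did not pass the test (Fisher's exact test, adjusted p = 0.177). When a partner within 500 bp was counted as a partner, the 10 kb difference was -1.45 points (-3.75 to 0.76, Fisher's exact test, adjusted p = 0.258). The size of the 10 kb difference also moved with the limits, to -4.48 points with a score limit of 50, to -4.54 points with only partner sites above the median of their list, and to -11.6 points where centres within 100 bp made a partner, and passed in each. It was -9.52 points at 5 kb and -3.39 points at 50 kb. The 10 kb difference from strong sites was no longer past the threshold once partner sites close to the Foxa2 site were left out, although the intervals still allow a difference of up to 3.75 points.

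The comparison with weak sites that have a partner changed direction with distance. Within 1 kb the weak sites with neither partner were higher, at 5.20% compared with 2.71% (difference 2.49 points, 1.93 to 3.02, Fisher's exact test, adjusted p = 2.5e-16). Neighbouring sites of 1 factor keep a gap of at least 345 bp (Insm1) or 403 bp (Neurod1) in the lists, which limits how close the next site of an overlapping partner can lie. The part of this gap in the direction was not tested, and nothing is read from the direction within 1 kb. Between 1 and 10 kb the weak sites with neither partner were lower, at 25.6% compared with 32.0% (difference -6.36 points, -7.73 to -5.01, Fisher's exact test, adjusted p = 7.3e-20). Within 50 kb the shares were 65.3% and 75.2%, a larger difference of -9.87 points (Fisher's exact test, adjusted p = 1.2e-44). The classes of weak sites are split by overlap with the same partner lists, so nothing is read from these differences either. Median distances to a partner were 26590 bp for weak sites with neither partner, 20293 bp for strong sites with neither partner and 19168 bp for weak sites with a partner.

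**Figure D2:**
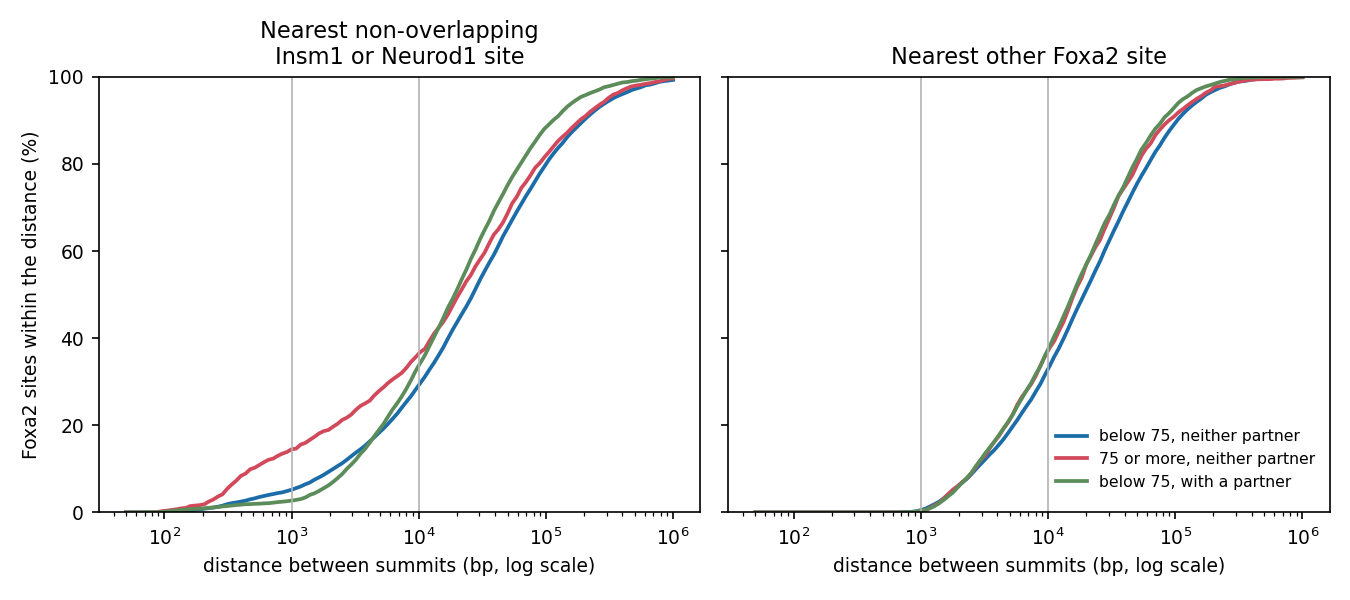
Share of Foxa2 sites (y axis, %) with the nearest non-overlapping Insm1 or Neurod1 site (left) or the nearest other Foxa2 site (right) within a distance between summits (x axis, bp, log scale), for weak sites with neither partner (14843), strong sites with neither partner (1918) and weak sites with a partner (6121). Grey lines mark 1 and 10 kb; on the left the strong sites are set apart already at 1 kb (14.5% compared with 5.20%), and on the right few sites have a neighbour within 1 kb (0.519% of the weak sites with neither partner).

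Among Foxa2 sites with neither partner, having a partner within 1 kb went up with the Foxa2 score, and having one between 1 and 10 kb showed no steady rise. The share within 1 kb was 4.18% (3.71 to 4.70%) at scores of 19 to 29, 4.45% (3.85 to 5.14%) at 30 to 39, 5.46% (4.58 to 6.50%) at 40 to 49, 8.26% (6.90 to 9.85%) at 50 to 59 and 9.13% (7.62 to 10.9%) at 60 to 74. It was 9.33% (7.32 to 11.8%) at 75 to 89, so the values on the sides of the limit overlapped within their intervals, and 23.5% (20.2 to 27.1%) at 120 and above. Between 1 and 10 kb the share stayed between 24.7% and 26.8% in the bins below 75. Score is part of the rule, and these shares are given without a test.

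**Figure D3:**
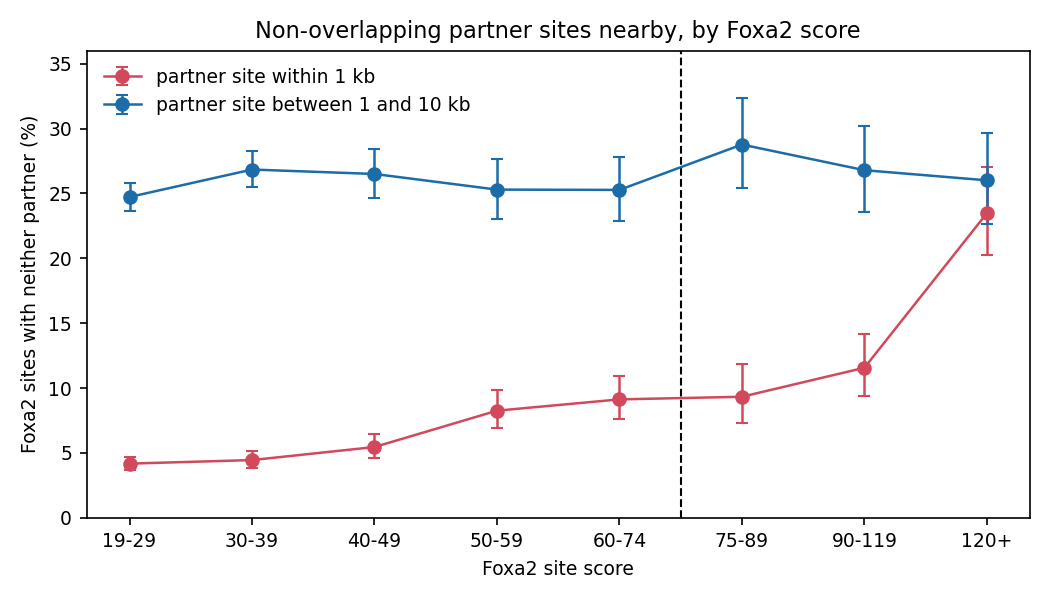
Share of Foxa2 sites with neither partner (y axis, %) that have an Insm1 or Neurod1 site within 1 kb (red) or between 1 and 10 kb (blue), by Foxa2 score (x axis). Points are shares and bars are 95% Wilson intervals; left of the dashed line are the weak sites, where the 1 kb share goes from 4.18% to 9.13% and the 1 to 10 kb share lies between 24.7% and 26.8%.

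The 772 weak sites with a partner within 1 kb are those that come nearest to being shared. Both partners were within 1 kb of 238 of them, Insm1 only of 239 and Neurod1 only of 295. The edges of site and partner were at most 100 bp apart at 198 weak sites (1.33%), and 100 to 200 bp apart at 135 (0.910%). At strong sites with neither partner these shares were 4.28% and 3.49%. Weak sites with a partner within 1 kb had a median score of 36 and a median width of 175 bp, compared with 32 and 186 bp for a partner between 1 and 10 kb. A score of 50 or more was found at 28.4% (25.3 to 31.6%) of the former and 15.8% (14.6 to 17.0%) of the latter. The overlap rule can bar wider sites this close to a partner, and its part in the widths was not tested.

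The sites closest to a partner without overlap were between 65 and 171 bp wide. They were picked by the smallest summit distance without overlap, which bounds their width, so nothing is read from it. The weak site nearest to Insm1 lay on chromosome 2 at 37732451 to 37732516, was 65 bp wide with a score of 41, and had an Insm1 summit 90 bp and a Neurod1 summit 88 bp from its own. The next lay on chromosome 4 at 142490862 to 142491033 (171 bp, score 57), with Insm1 at 94 bp and Neurod1 at 163 bp. The third, on chromosome 1 at 183482874 to 183482959 (score 64), had Insm1 at 95 bp and Neurod1 at 114 bp. All 3 thus stood next to a pair of partner sites and were counted as having neither. The sites nearest to Neurod1 differed in that Insm1 was farther off. They lay on chromosome 11 at 52372550 to 52372692 (Neurod1 at 38 bp, Insm1 at 2456 bp), on chromosome 2 at 62206368 to 62206520 (63 bp and 10144 bp) and on chromosome 15 at 54973941 to 54974020 (68 bp and 3208 bp). In the first of these the Foxa2 summit stood 9 bp from the start of a 142 bp site.

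The partner sites near weak Foxa2 sites were close in makeup to their lists as a whole, with differences of a few percentage points at most. The weak sites with Insm1 within 10 kb had 3240 different Insm1 sites as their nearest. Of these, 54.8% (53.1 to 56.6%) overlapped a Foxa2 site of their own, compared with 56.2% of all Insm1 sites, and 57.4% (55.7 to 59.1%) overlapped Neurod1, compared with 55.0%. Their median score was 130, as in the whole list. Of the 2846 nearest Neurod1 sites within 10 kb, 52.5% (50.7 to 54.3%) overlapped a Foxa2 site, compared with 55.9% of all Neurod1 sites, and 65.7% overlapped Insm1, as in the whole list. The median score was 73, compared with 72. These subsets are contained in the lists they are set against, and no test was made.

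At the other end, 2983 weak sites (20.1%) were more than 100 kb from any partner site and 415 (2.80%) more than 500 kb. Strong sites with neither partner were close to this, with 18.1% beyond 100 kb and 2.03% beyond 500 kb. Among weak sites with a partner, 11.6% were more than 100 kb from a further partner site, and over all Foxa2 sites the share was 16.9%. These shares were not tested. The remote weak sites had a median score of 32, as did those between 1 and 10 kb, and 17.5% (16.2 to 18.9%) scored 50 or more. Their median width was 195 bp. A strong Foxa2 site lay within 100 kb of 11.5% (10.4 to 12.7%) of the remote sites, compared with 62.0% (60.9 to 63.1%) of those 10 to 100 kb from a partner, 72.3% (70.8 to 73.7%) of those at 1 to 10 kb and 55.3% (51.8 to 58.8%) of those within 1 kb. The measures share sites, since 5226 strong Foxa2 sites wider than 60 bp overlap a partner and 1918 do not. A strong site that overlaps a partner is largely barred from lying within 100 kb of a remote site, by how remote sites were chosen. Nothing is read from the low share at the remote sites. The remote sites were neither lower in score nor narrower at the median than those between 1 and 100 kb from a partner. In windows of 1 Mb, 465 weak sites (3.13%) lay in 176 windows with no Insm1 or Neurod1 site at all, compared with 3.34% of strong sites with neither partner. The fullest of these windows were 108 to 109 Mb of chromosome 14 and 81 to 82 Mb of chromosome 16. Each held 10 Foxa2 sites, all of them weak sites, with scores of 22 to 71 and 19 to 71. By contrast, the windows with most weak sites, 21 each, were 51 to 52 Mb of chromosome 3, with 30 Insm1 and 32 Neurod1 sites, and 151 to 152 Mb of chromosome 5, with 14 and 11.

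A few weak sites stood more than a megabase from any other site. On the X chromosome, a 222 bp site at 86598346 to 86598568 (score 21) was 2736 kb from the nearest site of the 3 lists, and a 234 bp site at 76376508 to 76376742 (score 71) was 1608 kb from it. On chromosome 2, a 271 bp site at 88233770 to 88234041 (score 19) was 1455 kb away. One of these 3 thus had a score close to the limit.

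Weak sites with neither partner were also set more widely apart from other Foxa2 sites. Another Foxa2 site lay within 10 kb of 4889 of them (32.9%, 32.2 to 33.7%), of 37.1% of strong sites with neither partner and of 37.5% of weak sites with a partner. The differences were -4.13 points (-6.44 to -1.87, Fisher's exact test, adjusted p = 4.6e-04, lower on 15 of 20 chromosomes) and -4.59 points (-6.02 to -3.16, Fisher's exact test, adjusted p = 5.6e-10, lower on 16 of 20). A Foxa2 site scoring 75 or more lay within 10 kb of 11.3%, compared with 13.1% (difference -1.85 points, -3.51 to -0.32, Fisher's exact test, adjusted p = 0.02) and 12.7% (-1.44 points, -2.43 to -0.47, Fisher's exact test, adjusted p = 0.00439). The first of these differences did not pass with a score limit of 100 (-1.69 points, Fisher's exact test, adjusted p = 0.0785) or with partners within 500 bp counted as partners (-1.29 points, Fisher's exact test, adjusted p = 0.17). Over all Foxa2 sites, another site scoring 75 or more lay within 10 kb of 12.7%.

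Neighbours were drawn from all classes of Foxa2 site. Of the 4889 weak sites with a Foxa2 neighbour within 10 kb, the nearest was another weak site with neither partner in 49.1% (47.7 to 50.5%), compared with the 52.3% that this class holds in the list. It was a strong site with a partner in 21.1% (20.0 to 22.3%), compared with 18.4% of the list, and a strong site with neither partner in 6.97% (6.29 to 7.72%), compared with 6.76%. The share with a Foxa2 neighbour differed with the distance to the nearest partner, though not in 1 direction. A Foxa2 site was within 10 kb of 36.3% (33.0 to 39.7%) of weak sites with their nearest partner within 1 kb, of 74.5% (73.0 to 75.9%) of those with it between 1 and 10 kb, and of 20.4% (19.5 to 21.3%) of those with it between 10 and 100 kb. Over all weak sites with neither partner it was 32.9%. The 2 measures are not independent, since 54.8% of the Insm1 sites nearest to weak sites overlapped a Foxa2 site themselves.

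Most weak sites had no other weak site within 10 kb. When summits up to 10 kb apart were chained, 12110 weak sites (81.6%) were alone, and 2733 (18.4%) fell into 1283 clusters. Of these, 1140 were pairs, 121 held 3 sites, 20 held 4 and 2 held 5. Other classes of Foxa2 site were not chained in this way, so the 81.6% has no reference value. The median distance to the nearest other weak site was 40040 bp and the smallest 624 bp. Both clusters of 5 lacked any other Foxa2 site inside and any partner within 10 kb. The one on chromosome 15 spanned 19161 bp from 99677184 to 99696345, and its sites scored 37, 22, 30, 20 and 49 in order of position. The one on chromosome 3 spanned 29113 bp from 8949098 to 8978211, with scores of 22, 24, 59, 33 and 25. A cluster of 4 on chromosome 1, from 59014482 to 59031260, had scores of 23, 32, 20 and 30 and widths of 81, 87, 118 and 125 bp. Its sites were far from both partners, with 217896 bp to Insm1 and 217835 bp to Neurod1 for the nearest. Of the 22 clusters of 4 or more, the one with the highest median score (64.5) lay on chromosome 16 from 7506749 to 7521586, chosen after its values were seen, and all 4 of its sites had Neurod1 but not Insm1 within 10 kb.

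The weak sites were sparser on X than on the autosomes, as were the other classes of Foxa2 site. Density, per Mb between the outermost sites of a chromosome, ran from 4.71 on chromosome 7 to 6.83 on chromosome 18, with a median of 6.09. On X it was 2.53 per Mb, which is 42.2% of the 5.99 per Mb of all autosomes. Strong sites with neither partner had an X density of 47.5% of the autosomal one, weak sites with a partner 20.8%, and all Foxa2 sites together 34.7%. Of the weak sites with neither partner, 407 (2.74%) were on X, compared with 1.37% of weak sites with a partner (difference 1.37 points, 0.96 to 1.75, Fisher's exact test, adjusted p = 9.9e-10) and 3.08% of strong sites with neither partner (-0.33 points, -1.24 to 0.40, Fisher's exact test, adjusted p = 0.416). The partner lists were sparse on X, with 1.06 Insm1 and 1.11 Neurod1 sites per Mb. On the autosomes they held at least 5.62 and 4.49 per Mb. Overlap with these lists is part of the rule and separates the classes of weak sites, so nothing is read from the difference between those classes. The whole Foxa2 list also holds the sites with a partner, and nothing is read from the difference from it. Copy number of X was not tested. None of the weak sites lay on the Y chromosome or on mitochondrial DNA.

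Chromosomes differed in how often a weak site was without partner nearby. A partner lay within 10 kb of 23.1% (20.1 to 26.3%) of weak sites on chromosome 13 and of 35.9% (32.4 to 39.4%) on chromosome 11, with 13.0% (10.1 to 16.6%) on X. Over the 19 autosomes this share went with the density of Insm1 sites (Pearson's r = 0.80, Spearman's rho = 0.75) and of Neurod1 sites (r = 0.74, rho = 0.71), which count the same partner sites. The density of weak sites did not follow that of Insm1 (r = 0.07, rho = 0.19) or Neurod1 (r = -0.12, rho = -0.03). Median scores of the weak sites lay between 31 and 33 on all 20 chromosomes.

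**Figure D4:**
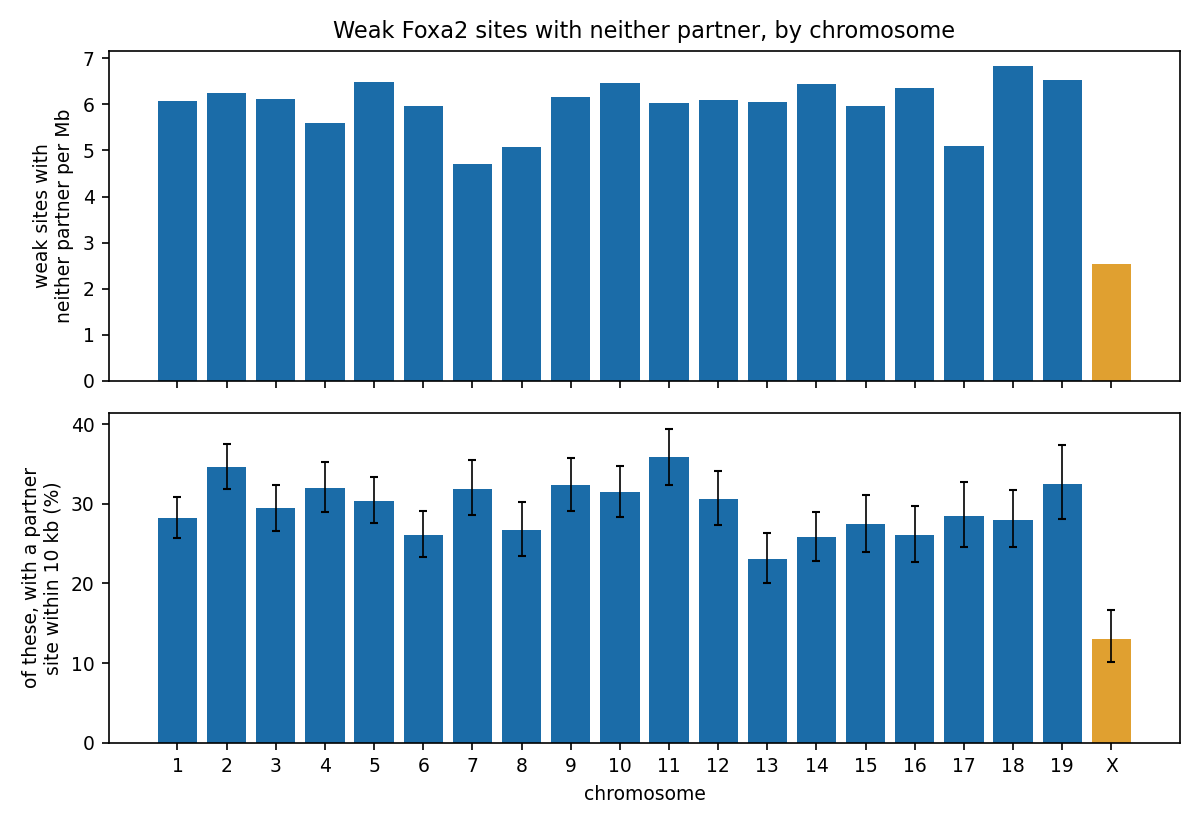
Weak Foxa2 sites with neither partner per Mb of the span of sites (top) and the share of them with an Insm1 or Neurod1 site within 10 kb (bottom, %, bars with 95% Wilson intervals), by chromosome (x axis, X in orange). Autosomes lie between 4.71 and 6.83 sites per Mb and between 23.1% and 35.9%, and X at 2.53 per Mb and 13.0%.

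In shape the weak sites varied in width, and as a set their summits leaned little to the start or the end. Their widths had quartiles of 146, 189 and 230 bp, and reached 974 bp. Strong sites with neither partner were somewhat wider at the median (205 bp), and so were weak sites with a partner (206 bp). Sites under 100 bp made up 8.54% of weak sites with neither partner, 2.61% of strong ones and 5.13% of weak sites with a partner. Sites over 300 bp made up 5.90%, 4.43% and 9.59% of the same classes. The summit was 25.5 bp from the centre at the median weak site. It stood in the middle 50% of the site in 80.0% of cases, compared with 89.4% at strong sites with neither partner and 81.3% at weak sites with a partner. It lay nearer the end than the start in 52.5% of weak sites, and in 52.4% and 52.6% of the other classes. Width is limited by the rule and moves with the score, so these values are not tested.

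The share with a partner nearby was lower among the widest weak sites, which is given as a description without a test. A wider site beside a partner can overlap it and so be barred by the rule. The part of the rule in this share was not tested. A partner lay within 10 kb of 32.2% (29.7 to 34.8%) of the 1267 weak sites of 61 to 99 bp and of 25.5% (22.8 to 28.5%) of the 897 sites of 300 bp or more, while their median scores were 28 and 31. The share with another Foxa2 site within 10 kb was 33.9% and 33.1%, with no such trend. The widest weak site, of 974 bp, lay on chromosome 5 at 74938164 to 74939138, with a score of 30 and Insm1 at 10773 bp. The next, of 858 bp, lay on chromosome 4 at 33554050 to 33554908 and scored 21, with the partners and the next Foxa2 site all 77863 to 77895 bp away. The third, of 795 bp, lay on chromosome 16 at 55241143 to 55241938 and scored 27, with a Foxa2 site at 2265 bp.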

How the data were processed

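Chromatin from a mouse beta cell line was immunoprecipitated with antibodies to Insm1, Neurod1 or Foxa2, or with IgG, 1 sample each. The submitters' processing notes name the tools CASAVA, Bowtie 0.12.7 and MACS 1.4 and the mouse build mm9. Their settings, the control, the site threshold and how repeats were combined stay unstated (not given in the sources used here). Each deposited list holds chromosome, start, end, an inner position read as the summit, and a whole number that the authors deposited as a score of unknown scale, used only within a list. Read depth is unknown. Coordinates are given as deposited. The members, classes and named sites were chosen with earlier results of these data known. Sites were named by score, width, isolation, nearness to a partner and cluster size, by fixed ranks. Shares of sites within a distance were compared between classes by two-sided Fisher's exact tests with Benjamini-Hochberg adjustment over 12 comparisons, or over 10 where the X share was not part of the setting. Other score, width, overlap and distance limits, partner lists and the X chromosome were tried. Distances were checked with partner sites planted at a known distance from weak sites, and by direct search. The tests were checked with class labels drawn at random. Motifs and genes near sites were planned and left out, for want of a genome of that build. The analyses used Python 3.11.15, numpy 2.4.6, pandas 2.3.3, scipy 1.17.1, statsmodels 0.14.6 and matplotlib 3.10.9.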

Additional observations from a re-analysis of the deposited data

How the results depend on the processing

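The number of weak sites stayed between 12316 (score below 50) and 17766 (only partner sites above the median of their list) over 10 alternatives, within 1.5 times the main 14843. Of 168 alternative values of the 12 differences, 149 had the same sign and the same outcome of the test. Adjusted p-values are from Fisher's exact tests and differences are in percentage points.

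Compared with strong sites with neither partner, the differences no longer passed with partners within 500 bp counted as partners (Insm1 -0.90, Neurod1 -1.07, either -1.45, strong Foxa2 site -1.29), between 1 and 10 kb (Insm1 -1.09, Neurod1 -1.13, either -1.57), within 100 kb for Insm1 (-1.98), and with a score limit of 100 for a strong Foxa2 site (-1.69). With only partner sites above the median of their list, the X difference turned to 0.12 and did not pass. Within 1 kb the differences for other Foxa2 sites (0.26) and strong Foxa2 sites (0.047) turned and did not pass.

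Compared with weak sites with a partner, the differences within 1 kb turned for Insm1 (2.40), Neurod1 (1.68), either partner (2.49), other Foxa2 sites (0.094) and strong Foxa2 sites (0.014); the last 2 did not pass. Within 5 kb Insm1 turned (0.67, not past the threshold) and either partner no longer passed (-0.66). The cause of these changes was not tested. Alternatives between 1 and 10 kb were chosen after seeing the data; the others were planned. No paired analysis was possible because each antibody has 1 sample. Leaving out a replicate was not possible for the same reason, and depth cannot be weighed without read counts.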
